A study of Mus musculus with 6 samples.

Results

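The genes described here are 7 genes known from satellite glial cells, *Fabp7*, *Glul*, *Slc1a3*, *Gja1*, *Sparcl1*, *Aqp4* and *Ednrb*, chosen by name from the 24062 genes counted in each library. All 7 were listed and all 7 passed the filter on low counts, with 15652 genes in all. Bulk RNA-seq of mouse dorsal root ganglion (DRG) and neurofibroma tissue was available for 6 mice of strain C57BL/6-I129, 3 of genotype Nf1fl/fl;DhhCre and 3 that also carried floxed *Runx1* and *Runx3* (Rx1fl/fl;Rx3fl/fl;Nf1fl/fl;DhhCre), called labelled double knockout here. The genotype label of the second group leaves out Nf1fl/fl, which the extraction protocol includes. The tissue is given as DRG for the first group and as neurofibroma tumor for the second. By these labels tissue and genotype cannot be told apart, although the protocol speaks of DRG/tumors for all. The paper's results instead name tumors for the Nf1fl/fl;DhhCre mice and DRG/tumors for the double knockout, so that the tissue labels are uncertain. Both groups thus carried floxed *Nf1* and Cre recombinase driven by the *Dhh* promoter, which acts in the Schwann cell (SC) lineage. Cells in which Cre was not active kept intact alleles, and which cells of these tissues had recombined was not measured. No wild-type ganglion was among the samples, and the ages of these mice were not in the labels.

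Satellite glial cells are the flattened glia that wrap each sensory neuron cell body in the DRG. They arise from the neural crest, share the SOX10-positive lineage with SCs, and buffer potassium, take up glutamate and couple to each other through gap junctions around the neuron they enclose. Brain lipid-binding protein (FABP7), glutamine synthetase (GLUL), the glutamate transporter GLAST (SLC1A3), connexin 43 (GJA1), the matrix protein SPARC-like 1 (SPARCL1), the water channel aquaporin 4 (AQP4) and the endothelin B receptor (EDNRB) are linked to these cells or to the related astrocytes of the central nervous system. None of these genes is restricted to satellite glia. *Glul* is also used by skeletal muscle and adipocytes, *Aqp4* by skeletal muscle fibers, *Gja1* by fibroblasts and vascular cells, *Sparcl1* by vascular cells, and *Ednrb* by endothelial and melanocyte lineage cells. In bulk tissue, fewer cells of a type and less RNA per cell cannot be told apart.

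Total counts ranged from 12439296 to 16682194 per library, so that 3 counts corresponded to 0.179 to 0.247 CPM (counts brought to a common library total after TMM normalization). This limit covers counting error only. Nf1fl/fl;DhhCre replicate 2 and replicate 2 labelled double knockout stood apart by skeletal muscle RNA, since 10 muscle genes summed to 18860 and 48580 CPM there and to 101 to 570 CPM in the other 4 libraries. Replicate 3 labelled double knockout went against its label at *Runx1* (185 CPM, the highest of the 6 libraries). Replicates 1 and 2 labelled double knockout were at 84.0 and 78.9 CPM, against 131 to 172 CPM in the Nf1fl/fl;DhhCre libraries. *Runx3* was lower in all 3 libraries labelled double knockout (10.3 to 13.5 CPM) than in the Nf1fl/fl;DhhCre libraries (15.1 to 29.9 CPM). Neither gene had an adjusted p below 0.05 (*Runx1* log2 fold change -0.44, adjusted p = 0.370, and *Runx3* -0.79, adjusted p = 0.104, limma-voom). Deletion of part of a gene need not lower its count, and *Nf1* differed by less than the spread between libraries (302 ± 30.8 CPM against 290 ± 44.5, SD, n = 3 each). Neuronal transcripts were present in every library. The 23 sensory neuron genes summed to 1929 to 3359 CPM in the Nf1fl/fl;DhhCre libraries and to 7491 to 15898 CPM in those labelled double knockout, without overlap, and 21 of the 23 rose. The group whose tissue label is DRG thus had the lower neuronal sums. The 11 general SC lineage genes summed to 2769 to 3116 and 2615 to 3690 CPM, which overlapped, although 2 of the 11, *S100b* and *Ngfr* (named after their values were seen), rose more than 2-fold with an adjusted p below 0.05. The 15 myelinating SC genes summed to 5844 to 6871 and 12182 to 15905 CPM, without overlap, and 11 of the 15 rose while 1 fell. Macrophage genes summed to 1257 to 2388 and 224 to 538 CPM, and fibroblast genes to 9439 to 10091 and 3502 to 5799 CPM, both lower in every library labelled double knockout. Spinal cord glia use many of the genes described here. Of 6 oligodendrocyte genes of the spinal cord, 5 did not pass the filter on low counts, and the 6 summed to 1.18 to 3.95 CPM over all libraries. The 6 astrocyte genes, which include *Slc1a2* and *Gfap*, summed to 57.5 to 86.8 and 85.4 to 156 CPM, with 1 higher (*Aldoc*, named after its value was seen) and 1 lower (*Gfap*).

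**Figure D1:**
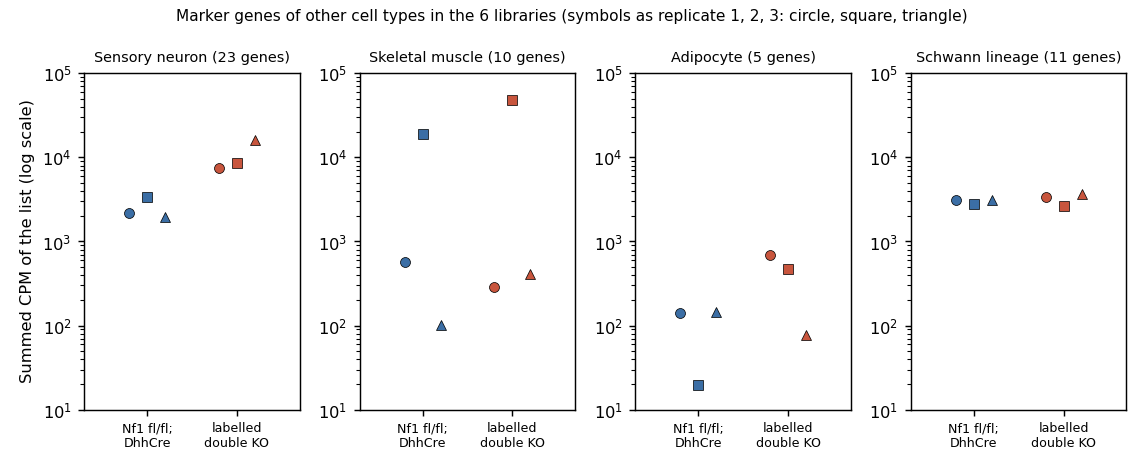
Summed CPM (log scale) of sensory neuron, skeletal muscle, adipocyte and general SC lineage genes in each library, with blue symbols for Nf1fl/fl;DhhCre and red symbols for libraries labelled double knockout. Sensory neuron genes were higher in every library labelled double knockout, muscle genes were high in replicate 2 of each genotype, and the SC lineage sums overlapped.

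Of the 7 satellite glial cell genes, only *Fabp7* passed both thresholds of the comparison (adjusted p below 0.05 and a change of more than 2-fold), where 13.4% of all genes tested did. *Fabp7* and *Sparcl1* passed the adjusted p threshold alone, *Fabp7* higher and *Sparcl1* lower in the libraries labelled double knockout, beside 19.3% of all genes. The libraries of the genotypes did not overlap for *Fabp7*, *Sparcl1* and *Aqp4*, 3 of 7, beside 42.3% of all genes. With 7 members these counts are given as a description. The log2 fold change was above 0 for 6 of the 7 genes with a median of 0.60 over the 7, beside 51.1% of all genes tested and a median of 0.015. Of these 6, *Gja1* was near 0 (0.04), and only *Fabp7* passed the adjusted p threshold. Each gene is described in turn, beginning with those whose libraries did not overlap.

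**Figure D2:**
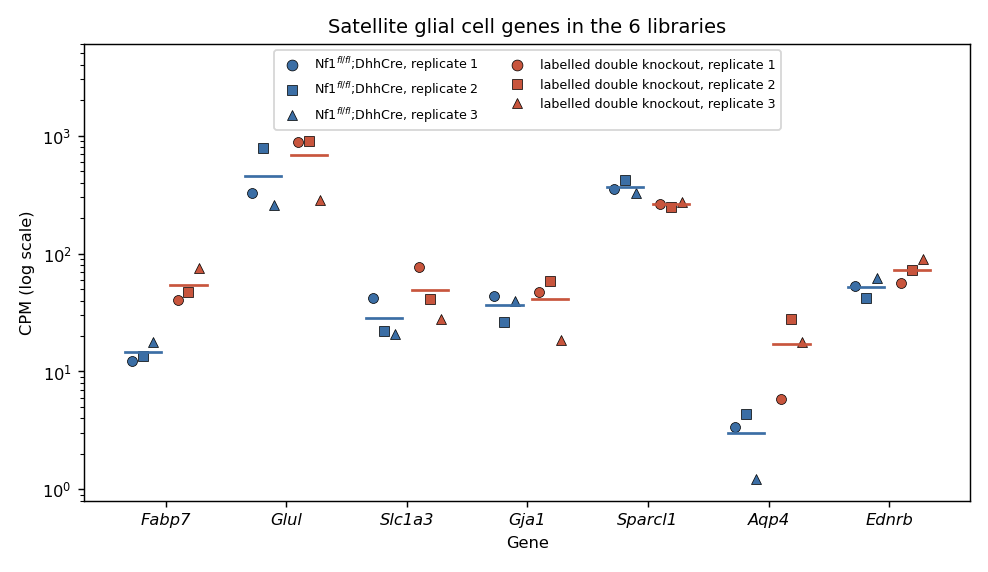
CPM (log scale) of the 7 genes in the 6 libraries, with circles, squares and triangles for replicates 1, 2 and 3 and horizontal lines for the mean of each genotype. The libraries of the genotypes were apart for *Fabp7* (at most 17.8 against at least 40.3 CPM), *Sparcl1* (at least 329 against at most 274 CPM) and *Aqp4* (at most 4.35 against at least 5.82 CPM), and overlapped for the other 4 genes.

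*Fabp7* encodes brain lipid-binding protein, a fatty acid-binding protein of radial glia, of SC precursors and of satellite glia. It was at 12.3, 13.6 and 17.8 CPM in the Nf1fl/fl;DhhCre libraries, against 40.3, 47.4 and 75.0 CPM under the double-knockout label. Every library labelled double knockout was thus above every Nf1fl/fl;DhhCre library, and replicate 3 labelled double knockout was the highest. The means were 14.6 ± 2.84 and 54.3 ± 18.3 CPM (SD, n = 3 each), and *Fabp7* rose with a log2 fold change of 1.87 (SE 0.29, 95% confidence interval 1.19 to 2.55, adjusted p = 0.0113, limma-voom, with the Benjamini-Hochberg method over all genes tested). Without replicate 3 labelled double knockout, whose *Runx1* went against its label, the log2 fold change was 1.60 (adjusted p = 0.0170, limma-voom). Without both muscle-rich libraries it was 1.92 (adjusted p = 0.0297, limma-voom). The call was lost only without Nf1fl/fl;DhhCre replicate 1 (1.80, adjusted p = 0.0515, limma-voom), where the number of genes called among all tested also fell, from 2096 to 362.

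*Fabp7* lies on chromosome 10 between 57784881 and 57788450, on the plus strand (GRCm38, GENCODE M21). Since *Runx1* and *Runx3* were the genes floxed, the 250 bases before the RefSeq start of each gene were searched on both strands for the RUNX core TGTGGT or TGCGGT, and, as a common promoter element, for the CCAAT box. RefSeq promoter sequence (GRCm38.p6) was at hand for 5 of the 7 genes, *Ednrb*, *Fabp7*, *Gja1*, *Glul* and *Slc1a3*. TGTGGT was present in 14.0% and TGCGGT in 5.1% of 32851 promoters, and neither was in any of the 5. CCAAT, present in 33.8% of promoters, was in 4 of the 5, all but *Gja1*. A match or its lack describes these letters in this window and says nothing of a factor. The *Fabp7* sequence is shown because this gene alone passed both thresholds, as the stretch of the plus strand at chr10:57784673-57784880 that precedes the annotated gene, with capitals for the CCAAT box in reverse orientation.
Fabp7: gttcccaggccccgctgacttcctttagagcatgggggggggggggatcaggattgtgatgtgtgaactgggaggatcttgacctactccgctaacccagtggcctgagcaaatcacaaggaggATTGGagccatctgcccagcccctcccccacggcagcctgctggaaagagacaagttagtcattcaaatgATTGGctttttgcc
The first bases of the CCAAT matches lay 126 and 56 bases before the RefSeq start. That start lies inside the GENCODE gene, since the searched window ended at 57784922, so these distances do not count from the end of the printed stretch. *Glul* had CCAAT boxes at 113 and 50 bases before its own RefSeq start, in the forward orientation. Its searched window ended at 153899928, before the start of the GENCODE gene.

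*Aqp4* encodes the water channel of astrocyte endfeet, which is held at the membrane by the dystroglycan complex. It was at 3.40, 4.35 and 1.22 CPM in the Nf1fl/fl;DhhCre libraries, against 5.82, 27.6 and 17.7 CPM under the double-knockout label, from 19 to 73 and 73 to 336 counts. The genotypes did not overlap, but replicate 1 labelled double knockout was nearer to the Nf1fl/fl;DhhCre libraries than to the other 2 of its group. The means were 2.99 ± 1.60 and 17.0 ± 10.9 CPM (SD, n = 3 each). The log2 fold change of 2.42, the largest of the 7 genes, came with an SE of 0.81 and a 95% confidence interval of 0.52 to 4.32, and did not pass the threshold after adjustment over all genes (adjusted p = 0.0770, limma-voom). The same counts passed with edgeR's quasi-likelihood test (2.51, adjusted p = 0.0378) and with DESeq2 (2.51, adjusted p = 0.000532). Without replicate 1 labelled double knockout, the log2 fold change was 3.06 (adjusted p = 0.0201, limma-voom). The highest value in each genotype was in its muscle-rich replicate 2, and without both of those libraries the log2 fold change was 2.40 (adjusted p = 0.113, limma-voom). *Aqp4* lies on chromosome 18 between 15389496 and 15410982, on the minus strand, and overlaps the antisense gene *AC133525.2*, which was not counted separately, so that reads of the 2 cannot be told apart if counting ignored the strand.

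**Figure D3:**
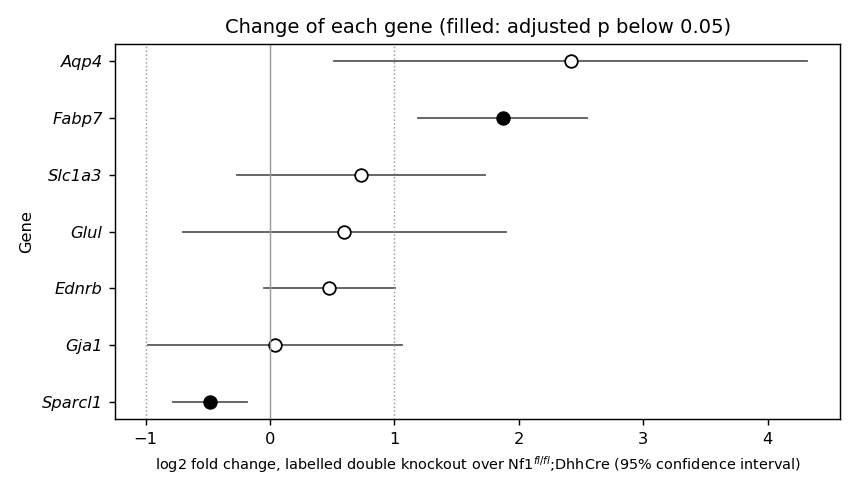
Log2 fold change of each gene (labelled double knockout over Nf1fl/fl;DhhCre, limma-voom on 3 libraries each) with its 95% confidence interval, filled where the adjusted p was below 0.05 and with dotted lines at a 2-fold change. *Fabp7* (1.87) and *Sparcl1* (-0.48) are filled, and the interval of *Aqp4* (0.52 to 4.32) excludes 0, although its p did not pass after adjustment over all genes.

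*Sparcl1* encodes a secreted matrix protein of the SPARC family that astrocytes release. It was at 351, 419 and 329 CPM in the Nf1fl/fl;DhhCre libraries, against 261, 249 and 274 CPM under the double-knockout label. The values did not overlap between the genotypes. They spread more widely in the Nf1fl/fl;DhhCre libraries, where the muscle-rich replicate 2 was the highest. The means were 366 ± 46.7 and 261 ± 12.2 CPM (SD, n = 3 each), and *Sparcl1* fell by 0.48 on the log2 scale (SE 0.13, 95% confidence interval -0.78 to -0.18, adjusted p = 0.0393, limma-voom), less than 2-fold. Leaving out any of the 6 libraries kept the direction (-0.52 to -0.34) but not the call (adjusted p = 0.0670 to 0.113, limma-voom). Without both muscle-rich libraries, the log2 fold change was -0.33 (adjusted p = 0.176, limma-voom). The gene lies on chromosome 5 between 104079111 and 104113733, on the minus strand, and overlaps the antisense gene *Gm26703*. Endothelial genes, which mark another source of *Sparcl1*, summed to 210 to 295 CPM in the Nf1fl/fl;DhhCre libraries and to 226 to 389 CPM in the others, with none of 10 passing the test. Fibroblast genes were lower under the double-knockout label, as *Sparcl1* was, and their part in its value was not tested.

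*Glul* and *Slc1a3* belong to the glutamate-glutamine cycle, in which glia take up glutamate through GLAST and convert it to glutamine with glutamine synthetase. *Glul* was at 324, 781 and 257 CPM in the Nf1fl/fl;DhhCre libraries, against 889, 903 and 285 CPM under the double-knockout label. It was high in Nf1fl/fl;DhhCre replicate 2 and in replicates 1 and 2 labelled double knockout, so that the genotypes overlapped. The log2 fold change was 0.60 (SE 0.55, 95% confidence interval -0.70 to 1.89, adjusted p = 0.485, limma-voom). The 2 muscle-rich libraries were among the 3 high ones, and the 5 adipocyte genes were highest in replicates 1 and 2 labelled double knockout (691 and 471 CPM against 19.7 to 144 CPM in the other 4 libraries). The part of muscle and fat in *Glul* was not tested. Without replicate 3 labelled double knockout the log2 fold change was 1.16, and without Nf1fl/fl;DhhCre replicate 3 it was 0.31. *Glul* lies on chromosome 1 between 153899944 and 153909723, on the plus strand, with *Teddm2*, which was not counted, overlapping an exon on the opposite strand, and *Mir8114*, listed at 0 in all 6 libraries, on the same strand.

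*Slc1a3* was at 42.4, 21.9 and 20.7 CPM in the Nf1fl/fl;DhhCre libraries, against 77.5, 41.5 and 27.7 CPM under the double-knockout label. Replicate 1 was the highest library of each genotype, and the values of the genotypes overlapped. The means were 28.3 ± 12.2 and 48.9 ± 25.7 CPM (SD, n = 3 each) with a log2 fold change of 0.73 (SE 0.43, 95% confidence interval -0.27 to 1.73, adjusted p = 0.264, limma-voom). Leaving out 1 library gave 0.37 to 1.10, the lowest without replicate 1 labelled double knockout and the highest without replicate 3. The gene lies on chromosome 15 between 8634124 and 8710764, on the minus strand.

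The counts of this list and of those below stand beside 13.4% of all genes tested that passed both thresholds in either direction. In the other 16 genes of glutamate uptake, glutamine transport and glutamate turnover, 14 were tested, 3 rose past both thresholds and none fell. These 3 were the vesicular glutamate transporters, which load synaptic vesicles in neurons. *Slc17a6* (VGLUT2) was at 15.7, 50.6 and 15.3 CPM in the Nf1fl/fl;DhhCre libraries, against 95.6, 135 and 239 CPM under the double-knockout label, and rose by 2.65 on the log2 scale (SE 0.52, adjusted p = 0.0178, limma-voom). *Slc17a7* (VGLUT1) and *Slc17a8* (VGLUT3) rose with log2 fold changes of 2.82 and 2.39 (adjusted p = 0.0262 and 0.0205, limma-voom). The second glial glutamate transporter, *Slc1a2* (GLT-1), was at 18.3, 16.3 and 6.80 CPM and at 14.8, 27.5 and 25.4 CPM, which overlapped (0.79, adjusted p = 0.214, limma-voom). Calls in this list were 0 without Nf1fl/fl;DhhCre replicate 1 and 0 without Nf1fl/fl;DhhCre replicate 3.

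*Gja1* encodes connexin 43, which forms gap junctions between satellite glial cells. It was at 43.8, 26.1 and 39.6 CPM in the Nf1fl/fl;DhhCre libraries, against 47.7, 58.5 and 18.4 CPM under the double-knockout label. The genotypes overlapped, and the libraries labelled double knockout held both the highest and the lowest value of the 6. The log2 fold change was 0.04 (SE 0.43, 95% confidence interval -0.98 to 1.06, adjusted p = 0.960, limma-voom), so that a change of about 2-fold in either direction was within the interval, and its sign depended on the libraries used. The gene lies on chromosome 10 between 56377330 and 56402513, on the plus strand.

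Of the 16 other connexins, pannexins and connexin scaffold, 11 were tested, 2 rose and none fell. *Gjb1*, which encodes connexin 32 of myelinating SCs, was at 3.54, 3.57 and 5.45 CPM in the Nf1fl/fl;DhhCre libraries, against 12.8, 11.3 and 13.2 CPM under the double-knockout label, and rose (1.59 on the log2 scale, SE 0.26, adjusted p = 0.0121, limma-voom). *Panx2*, a pannexin of neurons, rose from 1.75 ± 0.476 to 11.8 ± 5.57 CPM (SD, n = 3 each; 2.69, SE 0.57, adjusted p = 0.0219, limma-voom). *Gjc3*, which encodes connexin 29 of SCs and was far higher in both genotypes (619 ± 195 and 584 ± 80.9 CPM, SD, n = 3 each), had a log2 fold change of -0.036 (adjusted p = 0.937, limma-voom). The count of this list was 0 without Nf1fl/fl;DhhCre replicate 1, and 1 without Nf1fl/fl;DhhCre replicate 3 or without replicate 2 labelled double knockout.

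*Ednrb* encodes a G protein-coupled receptor for endothelins that neural crest cells and glia use. It was at 52.9, 41.7 and 62.5 CPM in the Nf1fl/fl;DhhCre libraries, against 56.1, 73.0 and 89.3 CPM under the double-knockout label. Replicate 1 labelled double knockout lay between the Nf1fl/fl;DhhCre libraries, and the other 2 lay above them. The log2 fold change was 0.48 (SE 0.22, 95% confidence interval -0.05 to 1.002, adjusted p = 0.173, limma-voom), and 0.31 to 0.69 when 1 library was left out. The gene lies on chromosome 14 between 103814625 and 103844402, on the minus strand. *Dct*, *Tyrp1* and *Mlana*, which mark melanocytes, did not pass the filter on low counts, each of the 3 being at most 0.726 CPM. The 5 melanocyte genes, mostly *Tyr* (64.9 to 86.1 CPM), summed to 85.7 to 89.4 CPM and 68.4 to 82.4 CPM.

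In the endothelin system, 6 of 8 genes were tested, 1 rose and 1 fell. The other receptor, *Ednra*, a receptor of fibroblasts and smooth muscle, was at 103, 62.4 and 96.0 CPM in the Nf1fl/fl;DhhCre libraries, against 31.7, 26.6 and 28.4 CPM under the double-knockout label, and fell by 1.55 on the log2 scale (SE 0.23, adjusted p = 0.0106, limma-voom). *Ednra* and *Ednrb* thus had log2 fold changes of opposite sign, of which only that of *Ednra* passed the test. The neutral endopeptidase gene *Mme*, which degrades endothelin among other peptides, rose from 106 ± 19.4 to 334 ± 80.0 CPM (SD, n = 3 each; 1.64, SE 0.21, adjusted p = 0.00862, limma-voom). The ligand gene *Edn3* was at 1.15 to 1.20 CPM in 4 libraries and at 7.89 and 4.29 CPM in replicates 2 and 3 labelled double knockout (1.54, adjusted p = 0.215, limma-voom).

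Of 12 other genes linked to satellite glia, all tested, 1 rose past both thresholds and 2 fell, with a median log2 fold change of -0.58. *Kcnj10*, which encodes the potassium channel Kir4.1 of satellite glia, was at 432, 361 and 413 CPM in the Nf1fl/fl;DhhCre libraries, against 181, 119 and 219 CPM under the double-knockout label. All of the latter were lower, and *Kcnj10* fell by 1.25 on the log2 scale (SE 0.22, adjusted p = 0.0138, limma-voom). *Gfap*, the intermediate filament gene of reactive and nonmyelinating glia, was at 23.2, 30.8 and 28.0 CPM against 6.38, 6.00 and 8.91 CPM and fell by 1.94 (SE 0.24, adjusted p = 0.00835, limma-voom). *Bcan*, which encodes the matrix proteoglycan brevican, rose from 2.22, 5.90 and 2.76 CPM to 11.4, 10.4 and 23.4 CPM (2.08, SE 0.51, adjusted p = 0.0320, limma-voom). The count of calls in this list was 1 without Nf1fl/fl;DhhCre replicate 1.

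Among 21 aquaporins and genes of the dystroglycan anchor, 15 were tested, none rose past both thresholds and 2 fell. These were *Kcnj10*, which also belongs to this list, and *Lama2* (from 672 ± 84.8 to 332 ± 79.3 CPM, SD, n = 3 each; log2 fold change -1.04, SE 0.19, adjusted p = 0.0151, limma-voom), a laminin chain that dystroglycan binds. Calls in this list were 0 without Nf1fl/fl;DhhCre replicate 1 and 1 without replicate 2 of either genotype.

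None of 10 tested fatty acid-binding protein and lipid receptor genes other than *Fabp7* passed both thresholds. *Pmp2* (FABP8), the fatty acid-binding protein of myelin, was at 176, 92.2 and 110 CPM in the Nf1fl/fl;DhhCre libraries, against 203, 236 and 240 CPM under the double-knockout label, and rose by less than 2-fold (0.90, SE 0.23, adjusted p = 0.0366, limma-voom). *Fabp5* was at 20.4 ± 11.2 and 30.0 ± 8.31 CPM (SD, n = 3 each), and its libraries overlapped (0.69, adjusted p = 0.270, limma-voom). In the SPARC family and its partners, 5 of 13 genes rose past both thresholds and 2 fell, beside 13.4% of all genes tested in either direction. *Sparc* itself, the closest relative of *Sparcl1* in this list, was at 4647, 3429 and 5263 CPM against 3240, 2412 and 2509 CPM and fell by 0.70 (SE 0.19, adjusted p = 0.0427, limma-voom), again under 2-fold. *Thbs2*, a thrombospondin of fibroblasts, fell by 2.62 (adjusted p = 0.00805, limma-voom). *Spock1* and *Spock2*, used by neurons, rose with log2 fold changes of 2.37 and 2.19 (adjusted p = 0.0111 and 0.0147, limma-voom). The SPARC family count of 7 fell to 1 without Nf1fl/fl;DhhCre replicate 1, and to 4 without Nf1fl/fl;DhhCre replicate 3 or without replicate 2 labelled double knockout. The fatty acid-binding protein count was 1 without replicate 1 of either genotype and 2 without replicate 3 labelled double knockout.

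**Figure D4:**
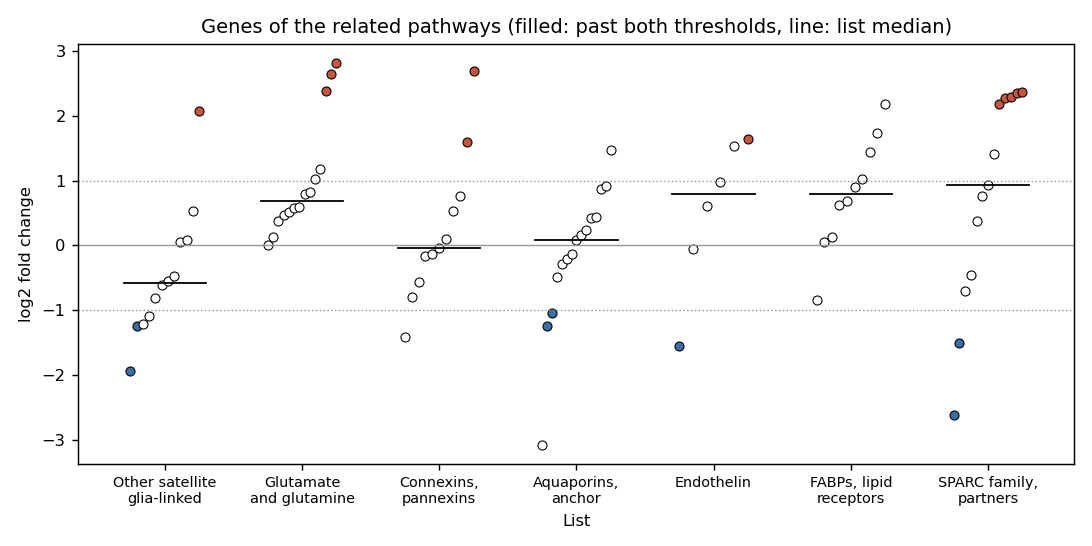
Log2 fold change (labelled double knockout over Nf1fl/fl;DhhCre) of each tested gene in the 7 related lists, filled where both thresholds were passed (red higher, blue lower), with a line at the list median and dotted lines at a 2-fold change. The filled genes of the glutamate list (3) are all higher, the satellite glia-linked list holds 1 higher and 2 lower genes, and no gene of the fatty acid-binding protein list is filled.

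Satellite glia enclose neurons, and neuronal transcripts differed between the genotypes, so that each gene was also set against the mean log2 CPM of the 23 sensory neuron genes in the same library. On this scale *Fabp7* was at -1.07, -1.88 and -0.29 in the Nf1fl/fl;DhhCre libraries, against -1.33, -1.37 and -1.44 under the double-knockout label. The genotypes overlapped, with a difference of means of -0.30. *Sparcl1* (difference -2.64), *Gja1* (-2.10), *Ednrb* (-1.69) and *Glul* (-1.56) were lower relative to neuronal genes in every library labelled double knockout than in any Nf1fl/fl;DhhCre library, as were 82.6% of all genes tested. The mean log2 CPM of the neuron genes was itself higher by 2.16 under the double-knockout label, so that a gene with the same CPM in both genotypes falls by this amount on the scale. *Slc1a3* (-1.42) and *Aqp4* (0.26) overlapped. These are descriptions of log2 differences without a test.

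Relative to the 11 general SC lineage genes, the differences had other values. *Fabp7* was at -3.86, -3.62 and -3.31 in the Nf1fl/fl;DhhCre libraries, against -2.33, -1.72 and -1.46 under the double-knockout label, without overlap (difference of means 1.76), as were 15.2% of all genes tested. *Aqp4* was higher without overlap (2.31), *Sparcl1* was lower without overlap (-0.58), as were 23.5% of all genes tested, and *Glul* (0.50), *Slc1a3* (0.64), *Gja1* (-0.04) and *Ednrb* (0.37) overlapped. Relative to the 15 myelinating SC genes, which were higher in CPM under the double-knockout label, *Fabp7* was at -3.33, -3.05 and -2.64 against -2.77, -2.21 and -1.91, which overlapped (difference 0.71). On that scale *Aqp4* (1.27), *Glul* (-0.54), *Slc1a3* (-0.41) and *Gja1* (-1.08) overlapped as well, and *Sparcl1* (-1.63) and *Ednrb* (-0.68) were lower without overlap, as were 69.9% of all genes tested. The mean log2 CPM of the myelinating genes was higher by 1.15 under the double-knockout label. *Fabp7* was thus higher without overlap in CPM and relative to the general SC lineage genes, and overlapped between genotypes relative to the neuronal and the myelinating genes.

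**Figure D5:**
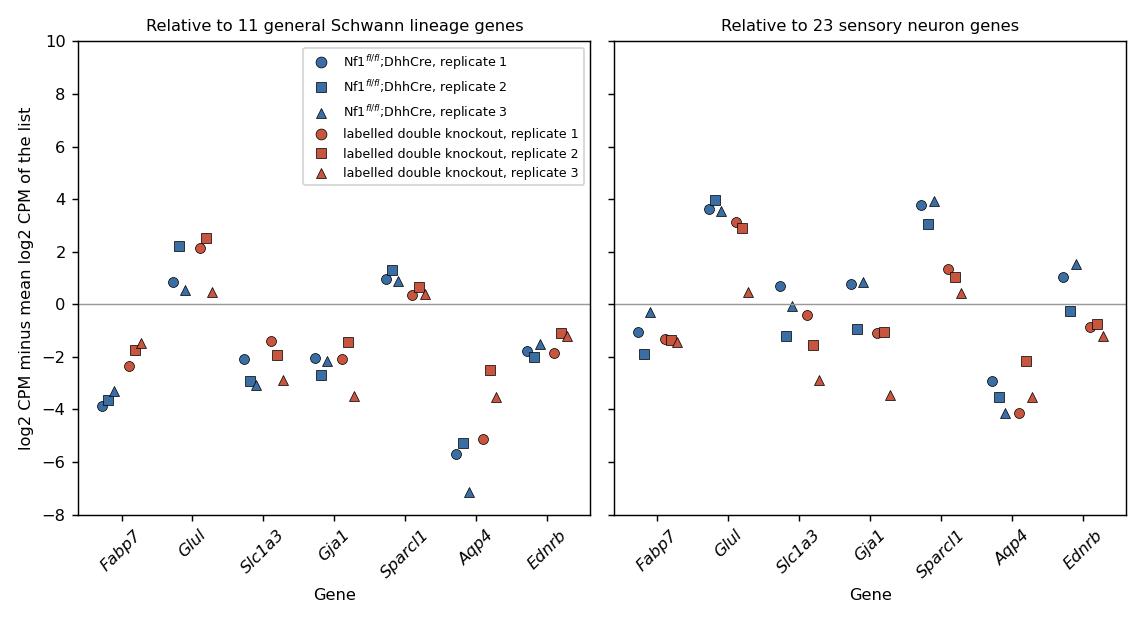
Log2 CPM of each gene minus the mean log2 CPM of 11 general SC lineage genes (left) or 23 sensory neuron genes (right) in the same library, with circles, squares and triangles for replicates 1, 2 and 3. *Fabp7* and *Aqp4* are higher in every library labelled double knockout on the left, while on the right both overlap and *Sparcl1*, *Gja1*, *Ednrb* and *Glul* are lower in every such library, where the neuron mean was higher by 2.16 and 82.6% of all genes were lower without overlap.

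Levels were compared between genes as CPM per kilobase of merged exons (GENCODE M21). In the Nf1fl/fl;DhhCre libraries, *Glul* (137 ± 85.8) and *Sparcl1* (125 ± 15.9) were the highest, followed by *Ednrb* (12.3 ± 2.44), *Fabp7* (11.7 ± 2.27), *Gja1* (3.56 ± 0.900), *Slc1a3* (3.32 ± 1.43) and *Aqp4* (0.480 ± 0.257; all CPM per kilobase, SD, n = 3). Within this order, *Glul* and *Sparcl1*, *Ednrb* and *Fabp7*, and *Gja1* and *Slc1a3* differed by less than the SD. In the libraries labelled double knockout the order was *Glul* (208 ± 106), *Sparcl1* (89.0 ± 4.15), *Fabp7* (43.4 ± 14.6), *Ednrb* (17.1 ± 3.89), *Slc1a3* (5.73 ± 3.01), *Gja1* (4.05 ± 2.02) and *Aqp4* (2.73 ± 1.75), with *Fabp7* above *Ednrb* in each of the 3 libraries. *Glul* and *Sparcl1* overlapped there, as did the last 3 genes.

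Across the 6 libraries, the members did not share a single pattern. Pearson's r of log2 CPM between pairs of the 7 genes ran from -0.87 (*Fabp7* and *Sparcl1*) to 0.83 (*Ednrb* and *Fabp7*), with 0.78 for *Aqp4* and *Fabp7* and 0.13 for *Fabp7* and *Glul*. These values describe 6 libraries that fall into the genotypes and share tissue composition, and carry no test. Among 10222 genes averaging at least 3 in log2 CPM, the patterns most like *Fabp7* were those of *Etnk1* (r = 0.996) and *Gm10033* (0.994), and most like *Glul* those of *Fmo1* (0.994) and *Slc1a5* (0.981). The nearest were *Crispld2* (0.984) and *Adamts9* (0.975) for *Slc1a3*, *Derl1* (0.989) and *Pon3* (0.988) for *Gja1*, and *Lrp4* (0.998) and *Pcdhb17* (0.996) for *Sparcl1*. For *Aqp4* they were *Psmc6* (0.994) and *Epha7* (0.988), and for *Ednrb* they were *Leo1* (0.9996) and *Fam134b* (0.984). They are the highest values of many genes over few libraries.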

How the data were processed

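The authors amplified RNA with the NuGEN Ovation system, prepared Nextera XT libraries, aligned paired-end reads to mm10 with TopHat and deposited raw featureCounts counts per gene. The annotation, strand setting and treatment of multiply aligned reads are not given in the sources used here. The mouse number in the title and that in the deposited data differ, within a genotype, for 4 libraries, so that a replicate number here is only a name and pairs nothing. P-values set the difference between the genotypes against the spread between these libraries. They do not separate genotype from the tissue label that goes with it.

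The filter on low counts was edgeR's filterByExpr (4.0.16) with a minimum of 10 in a library and 15 in total. TMM factors and limma-voom (3.58.1, in R 4.3.3) followed, with genotype as sole term and Benjamini-Hochberg adjustment over all genes tested. CPM are counts of the tested genes brought to a common library total with TMM factors, and log2 CPM of lists used a prior count of 0.5. Confidence intervals are 95% intervals of the moderated fit. Replicates of a genotype differed beyond sampling noise (chi-square per degree of freedom 21.7 to 133). The members and lists were chosen with earlier results of these data known. Named genes were the 7 members, the floxed genes, up to 4 genes past both thresholds with the smallest adjusted p in each list, fixed partners, and the 2 genes most like each member. A few genes named by this rule are left out of the text. The fitting was tested on simulated data. Other settings were DESeq2 (1.42.0) or its size factors alone, edgeR's quasi-likelihood test, scaling to library size, sample quality weights, a filter of CPM over 1 in 3 libraries, all genes with any count, and each library left out. Leaving out both muscle-rich libraries was added after seeing the data. Python 3.11.15 with matplotlib 3.10.9 drew the figures.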

Additional observations from a re-analysis of the deposited data

How the results depend on the processing

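*Fabp7* remained above 0 in every alternative (1.79 to 1.90 across the 7 other tests, scalings and filters, and 1.60 to 2.10 when 1 library was left out), and its call was lost without Nf1fl/fl;DhhCre replicate 1. *Aqp4* passed under edgeR (2.51) and DESeq2 (2.51), so that 2 members passed both thresholds under each of these, where 14.5% and 18.6% of all genes did (13.4% with limma-voom), and ranged from 1.90 to 3.06 with 1 library left out. *Sparcl1* ranged from -0.52 to -0.34 with 1 library left out, and was -0.33 without both muscle-rich libraries, where 1 member passed the adjusted p threshold alone, beside 12.9% of all genes. *Gja1* changed sign under library size only (-0.036), without Nf1fl/fl;DhhCre replicate 2 (-0.16), without replicate 1 (-0.13) or 2 (-0.28) labelled double knockout, and without both muscle-rich libraries (-0.51), and ranged from -0.28 to 0.58 with 1 library left out; the cause was not tested. *Glul*, *Slc1a3* and *Ednrb* stayed above 0 and did not pass in any of these fits.

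With 1 library left out, 0 to 2 members passed both thresholds (2.26% to 14.3% of all genes) and 0 to 2 the adjusted p threshold alone (2.39% to 18.9% of all genes). The counts past both thresholds were then 1 to 4 for the other satellite glia-linked genes, 0 to 4 for the glutamate list, 0 to 3 for connexins, 0 to 3 for aquaporins and their anchor, 2 to 3 for endothelin, 0 to 2 for fatty acid-binding proteins and 1 to 7 for the SPARC family, beside 362 to 2285 of all genes. Sample quality weights left 1 aquaporin or anchor gene and gave 1 fatty acid-binding protein gene, for which edgeR gave 1 and DESeq2 gave 2. Without both muscle-rich libraries the connexin list and the aquaporin list had 1 gene each. With 3 libraries a genotype, changes such as that of *Glul* (SE 0.55) could not be resolved, and *Aqp4* rested on as few as 19 counts in a library.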
